A study of Mus musculus with 4 samples.

Results

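The small RNAs described here are those of the miRNA gene Mir21, which lies inside the 3' UTR of Vmp1, in liver and spleen of mice with and without the PIWI protein MIWI2. They were chosen from the deposited lists of small RNAs in somatic 3' UTR clusters as the sequences whose single best placement on the mouse genome NCBIM37, with at most 1 mismatch, fell in the Vmp1 3' UTR. Of 7845 list entries in 4 libraries, 599 were members. The Mir21 gene held 214 of the 4273 sequences of the wild type (WT) liver list, 213 of 2634 in WT spleen, 96 of 560 in Miwi2-/- liver and 70 of 378 in Miwi2-/- spleen. The remainder of the Vmp1 3' UTR held 3, 2, 0 and 1 sequences in the same order. The locus was chosen because it was already known to hold many sequences in these lists, so its counts are a description.

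All 4 groups were tissues of adult C57BL/6 mice. They were WT liver, WT spleen, and the liver and spleen of mice carrying a knockout of Miwi2 (Piwil4), with 1 library per group. No value therefore has a replicate check, and a difference between a WT and a Miwi2-/- library cannot be told apart from a difference between those libraries. The lists hold each distinct sequence once, without a read count, so the values below count different sequences and not molecules. The Miwi2-/- lists were limited to cluster regions, and lists of small RNAs can check neither the loss of Miwi2 mRNA nor the tissue labels. The sex of the animals and the number behind each library are not given in the sources used here.

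Vmp1 encodes a transmembrane protein of the endoplasmic reticulum that takes part in autophagy. Mir21 overlaps the end of this gene and can also be transcribed from a promoter of its own. A miRNA hairpin is cut by Drosha and then by Dicer into a duplex of 2 arms, of which mostly 1 is kept by an Argonaute protein. miR-21, one of the most abundant miRNAs of many tissues, is kept mainly from the 5p arm and is known in liver injury, inflammation and immune cells. Variants of a miRNA with other ends or with added or changed bases are called isomiRs. A shift of the 5' end moves the seed, the bases 2 to 8 that pair with target mRNAs, whereas a shift of the 3' end leaves it in place.

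In NCBIM37 the Vmp1 3' UTR spans 1446 nt of the minus strand of chromosome 11 (86397367 to 86398812). The Mir21 gene (86397569 to 86397660, 92 nt) covers 6.36% of it, starting 1152 nt after the start of the UTR and ending 202 nt before its end. miR-21a-5p lies at 86397622 to 86397643 and miR-21a-3p at 86397584 to 86397605. Positions below are counted along the minus strand from the first base of miR-21a-5p, which is position 1. The base before it is position 0, the annotated 5p arm ends at 22, and the 3p arm runs from 39 to 60. The mature arms, and a further mouse miRNA with the same seed, are shown from RefSeq (mouse GRCm38.p6) with the seed in capitals.
mmu-miR-21a-5p: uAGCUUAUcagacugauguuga
mmu-miR-21a-3p: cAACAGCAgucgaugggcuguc
mmu-miR-21c: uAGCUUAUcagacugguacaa

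The annotated 22 nt form of miR-21a-5p was present in all 4 lists. It was accompanied by shorter, longer and substituted forms. Counting the annotated form itself, 46 Mir21 sequences were found in every library. The first 12 of these 46, ordered by their 5' and then their 3' end, are shown to give the range of ends. Each is named by its first and last position, and a capital marks the base that differs from the genome, with N for a base that was not read.
0 to 20: auagcuuaucagacugauguu
0 to 21: auagcuuaucagacugauguug
1 to 16: uagcuuaucagacuga
1 to 17: uagcuuaucagacugau
1 to 18: uagcuuaucagacugaug
1 to 19: uagcuuaucagacugaugu
1 to 19, U17N: uagcuuaucagacugaNgu
1 to 20: uagcuuaucagacugauguu
1 to 20, C4A: uagAuuaucagacugauguu
1 to 20, C13A: uagcuuaucagaAugauguu
1 to 20, U14G: uagcuuaucagacGgauguu
1 to 20, U19N: uagcuuaucagacugaugNu

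Mir21 sequences were 5.01% of the list in WT liver (4.39 to 5.70%, Wilson 95% confidence interval) and 8.09% of it in WT spleen (7.11 to 9.19%). Their share was 17.1% in Miwi2-/- liver (14.3 to 20.5%) and 18.5% in Miwi2-/- spleen (14.9 to 22.7%). These intervals, like all below, cover counting error only. The regions kept in all 4 lists had been chosen for their small RNAs in the WT libraries, so a fall of the rest of a list from WT to Miwi2-/- is in part fixed by that choice. The ratios below are therefore given side by side as a description. In liver, Mir21 had 0.449 times as many distinct sequences in Miwi2-/- as in WT, and the rest of the list 0.114 times as many. In spleen the corresponding ratios were 0.329 and 0.127. The number of distinct sequences that aligned uniquely in the whole library, a measure of depth, was 0.206 times that of WT in Miwi2-/- liver and 0.195 times in Miwi2-/- spleen. Per 1000 such sequences, Mir21 had 3.31 in WT liver, 1.65 in WT spleen and, in Miwi2-/-, 7.22 in liver and 2.78 in spleen. The Miwi2-/- value was thus the higher one in both tissues. Since distinct sequences do not grow in proportion to reads, these ratios do not measure the amount of miR-21.

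**Figure D1:**
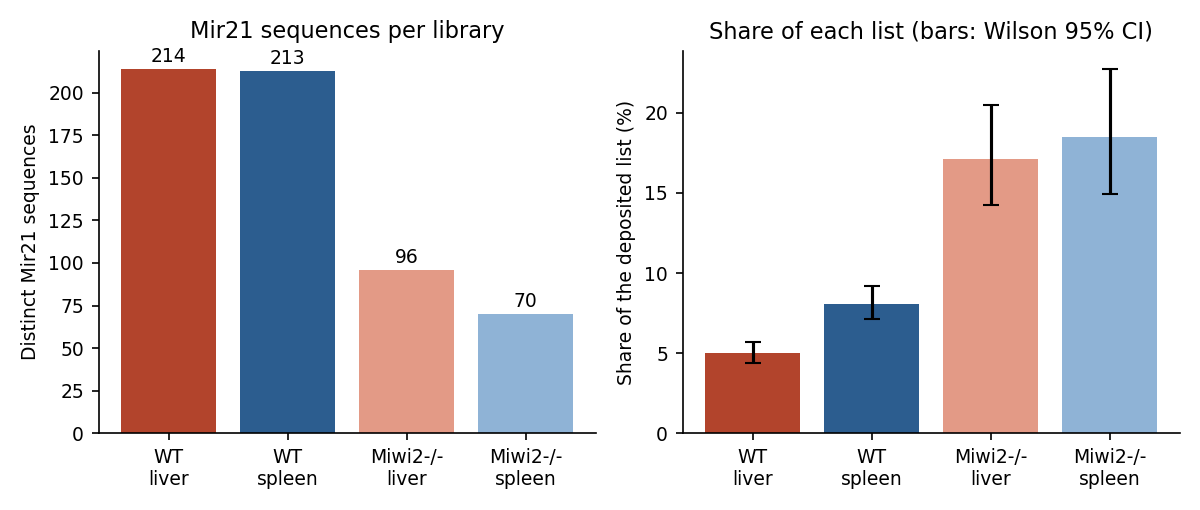
The left panel shows the number of distinct Mir21 sequences in each of the 4 libraries (1 library per bar) and the right panel their share of the deposited list in percent, with Wilson 95% confidence intervals. The WT libraries held 214 and 213 sequences and the Miwi2-/- libraries 96 and 70, whereas the share of the list was 5.01% and 8.09% in WT and 17.1% and 18.5% in Miwi2-/-.

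Nearly all Mir21 sequences came from the 5p arm, the arm that is mainly loaded into Argonaute proteins. It accounted for 209 of 214 sequences in WT liver (97.7%), 211 of 213 in WT spleen (99.1%), 95 of 96 in Miwi2-/- liver (99.0%) and 69 of 70 in Miwi2-/- spleen (98.6%). The 3p arm gave 5 sequences in WT liver and 1 in each of the other 3 libraries. The 5p share rests in part on the many substituted 5p forms. In the same order, it was 81.5, 90.9, 94.7 and 93.8% with each pair of ends counted once. Among exact matches it was 75, 94.4, 92.3 and 92.3%. No sequence came from the loop between the arms. A single WT spleen sequence, from -20 to -1, lay 5' of the mature arm and reached past the 5' end of the annotated gene.

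The 3p arm differed from the 5p arm in that all 8 of its list entries matched the genome exactly. In WT liver they ran from 39 to 57, 58 and 60, the last being the annotated 3p form, and from 40 to 59 and 61. The WT spleen sequence ran from 39 to 59, the Miwi2-/- liver sequence from 39 to 57 and the Miwi2-/- spleen sequence from 39 to 55. The longest sequence from each stretch of the hairpin, up to 30 nt, shows how far the small RNAs reached. Capitals mark the mismatches G25U and U-20C.
5p arm, WT liver, 1 to 28: uagcuuaucagacugauguugacuUuug
3p arm, WT liver, 40 to 61: aacagcagucgaugggcugucu
5' of the arm, WT spleen, -20 to -1: Cggcuguaccaccuugucgg

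Most distinct 5p sequences had the annotated 5' end. It fell on position 1 in 197 of 209 sequences in WT liver (94.3%), 199 of 211 in WT spleen (94.3%), 88 of 95 in Miwi2-/- liver (92.6%) and 63 of 69 in Miwi2-/- spleen (91.3%). The next most frequent start in each library was position 0, with 7, 10, 3 and 5 sequences. Position 2 was the start of 3, 2, 2 and 0 sequences, and all other starts had at most 1 sequence in a library. The share rests in part on how many substituted forms each pair of ends had. With each pair of ends counted once, position 1 was the start in 59.1% in WT liver, 60% in WT spleen and, in Miwi2-/-, 61.1% in liver and 66.7% in spleen, and among exact matches in 60, 64.7, 75 and 75%. The seed of a sequence starting at position 1, AGCUUAU, is shared in RefSeq by miR-21a-5p and miR-21c among 1679 mature mouse miRNAs. A start at position 0 gives UAGCUUA, which no listed miRNA has, and a start at position 2 gives GCUUAUC, which is the seed of miR-3965. Forms from 0 to 20 and from 0 to 21 without a mismatch occurred in all 4 lists, so the start at position 0 recurred between libraries with the same sequences.

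The 3' end varied over more positions. It lay at positions 20 to 23 in 81.8% of the 5p sequences in WT liver, 80.1% in WT spleen and, in Miwi2-/-, 81.1% in liver and 81.2% in spleen. Position 22, the annotated end, was the most frequent in both WT libraries, with 59 sequences in liver (28.2%) and 60 in spleen (28.4%). Position 21 led in both Miwi2-/- libraries, with 27 sequences in liver (28.4%) and 23 in spleen (33.3%). WT liver had 44 sequences ending at 21 (21.1%) and WT spleen had 47 (22.3%). The order of the 2 leading ends was thus the same in both tissues of a genotype and opposite between genotypes. It rests on the number of mismatched forms. Among sequences starting at position 1, each of these 2 ends had 1 exact form in every library. The 95% intervals of the share ending before position 22 overlapped between WT and Miwi2-/- in both tissues. In liver they were 38.9 to 52.2% in WT and 44.7 to 64.4% in Miwi2-/-, and in spleen 42.6 to 56% and 49.1 to 71.5%.

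**Figure D2:**
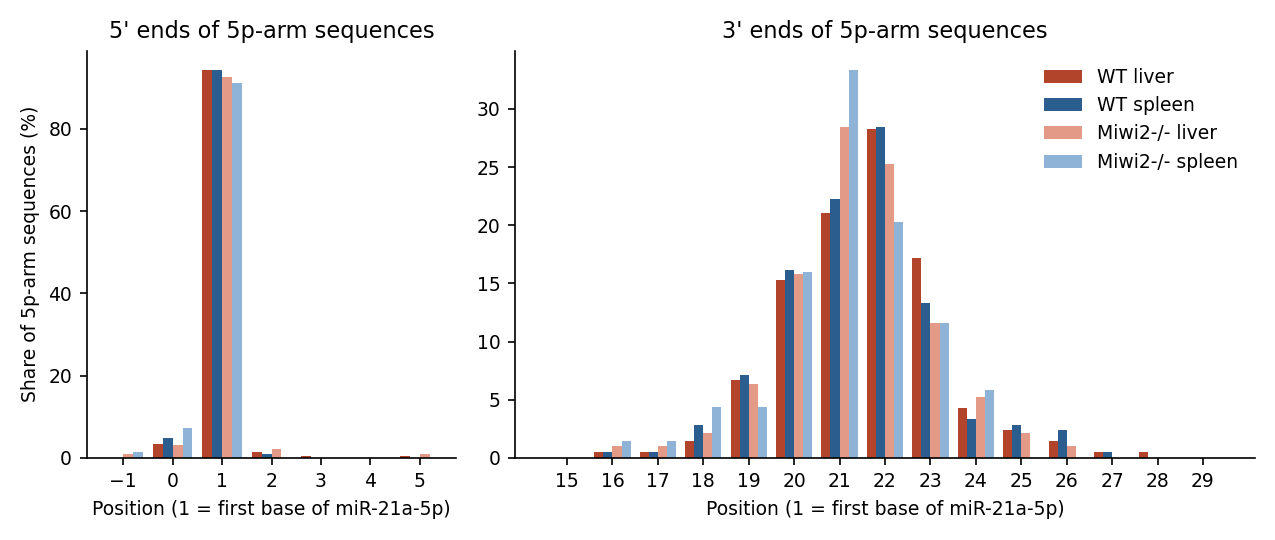
Bars show the share of 5p-arm sequences (percent) with each 5' end (left) and 3' end (right) in the 4 libraries, by position counted from the first base of miR-21a-5p; 1 Miwi2-/- spleen sequence ending at position 34 lies beyond the axis. Starts stood at position 1 in 91.3 to 94.3% of sequences, while 3' ends spread mainly over positions 20 to 23, with the highest bar at 22 in the WT libraries and at 21 in the Miwi2-/- libraries.

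The lengths followed the 3' ends. The median length of the 5p sequences was 22 nt in both WT libraries and 21 nt in both Miwi2-/- libraries. Among exact matches it was 21 nt in both WT libraries and 20.5 nt in both Miwi2-/- libraries. The upper quartile was 22 nt in every library, and the lower quartile was 21 nt in WT liver and 20 nt in the other 3. The shortest sequence was 16 nt in every library and the longest 28, 27, 26 and 34 nt. The one of 34 nt, in Miwi2-/- spleen, ran from position 1 to 34 and carried A29U. Sequences of 24 to 31 nt, the range of the gel slice in the sample labels, made up 19 of 214 in WT liver (8.88%), 20 of 213 in WT spleen (9.39%), 8 of 96 in Miwi2-/- liver (8.33%) and 4 of 70 in Miwi2-/- spleen (5.71%). Most Mir21 sequences were therefore shorter than that range, although the study's methods name a wider slice.

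Past the annotated end, 55 of the 5p sequences in WT liver (26.3%), 47 in WT spleen (22.3%) and, in Miwi2-/-, 19 in liver (20%) and 13 in spleen (18.8%) continued beyond position 22. Enzymes that tail miRNAs add uridine or adenosine at this end, whereas a shifted Drosha or Dicer cut leaves genomic bases. The genome has C at position 23. The full 22 nt form followed by this C, by A and by U occurred in each of the 4 lists, and the form followed by G in none of them. With 1 further base, the endings CU, which matches the genome, CA and AU were also present in all 4 lists. So was NU, with an unread base at position 23. In AU the mismatch lies at position 23, and the last base matches the genome. Whether the bases that differ from the genome were added to the RNA or arose in library preparation or adapter trimming was not tested. The 3 forms of 23 nt are shown with the base at position 23 in capitals.
22 nt and C: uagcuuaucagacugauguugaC
22 nt and A: uagcuuaucagacugauguugaA
22 nt and U: uagcuuaucagacugauguugaU

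Most Mir21 sequences differed from the genome at 1 base. A mismatch was carried by 194 of 214 in WT liver (90.7%), 195 of 213 in WT spleen (91.5%), 83 of 96 in Miwi2-/- liver (86.5%) and 57 of 70 in Miwi2-/- spleen (81.4%). The other 20, 18, 13 and 13 matched it exactly. No sequence could carry more than 1, because such sequences were not kept. The share with a mismatch exceeded that of all other sequences of the same list in every library. The rest of the list had 56.2% in WT liver, 59.0% in WT spleen and, in Miwi2-/-, 58.0% in liver and 60.7% in spleen. The differences were 34.5 percentage points in WT liver (95% Newcombe interval 29.6 to 38; two-sided Fisher's exact test, p = 4.75e-27 after Benjamini-Hochberg adjustment over 12 tests), 32.6 in WT spleen (27.7 to 36.2; adjusted p = 1.81e-24 in the same exact test) and, in Miwi2-/-, 28.5 in liver (19.1 to 35.6; 5.58e-08) and 20.7 in spleen (8.82 to 30; 0.000867). Each such test compares 2 sets of sequences within 1 library. Overlapping sequences enter it as if they were independent, so its p value is too small. Mir21 was also chosen for its many distinct sequences. On 1 short arm these can differ only by their ends or by a mismatch. The contrasts in mismatches, here and below, are therefore in part fixed by that choice.

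The place of the mismatch set Mir21 apart more than its frequency. In the rest of the lists, the leading kind was a 3'-terminal A that did not match the genome, carried by 47.1% of sequences in WT liver, 47.3% in WT spleen and, in Miwi2-/-, 47.6% in liver and 47.7% in spleen. At Mir21 only 4, 5, 3 and 3 sequences had it (1.87, 2.35, 3.13 and 4.29%). The differences, Mir21 minus the rest, were -45.3, -45.0, -44.5 and -43.4 percentage points, with adjusted p values of the exact test from 9.13e-50 in WT liver to 1.88e-13 in Miwi2-/- spleen. Among sequences whose last genome base is not A, where a terminal A differs from the genome, the differences were larger, at -75.1, -73.1, -73.4 and -68.7 points. Whether such an A was added to the RNA or arose in library preparation or adapter trimming was not tested. Internal mismatches, meaning those at any base but the 3'-terminal one, showed the opposite. A kept sequence had at most 1 mismatch, so these kinds exclude each other. The contrasts are therefore not independent, and each in part fixes the other. As above, the choice of the locus also fixes them in part, and their p values are too small. Internal mismatches were carried by 181 Mir21 sequences in WT liver (84.6%), 183 in WT spleen (85.9%) and, in Miwi2-/-, 78 in liver (81.2%) and 53 in spleen (75.7%). The rest of the lists had 7.17, 10.1, 6.99 and 12.4%. The differences were 77.4, 75.8, 74.3 and 63.3 percentage points, with adjusted p values from 1.28e-150 in WT liver to 6.30e-25 in Miwi2-/- spleen in Fisher's exact test. The rest of the list was counted here over the 4030, 2410, 458 and 306 sequences whose strand could be read from the clusters.

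**Figure D3:**
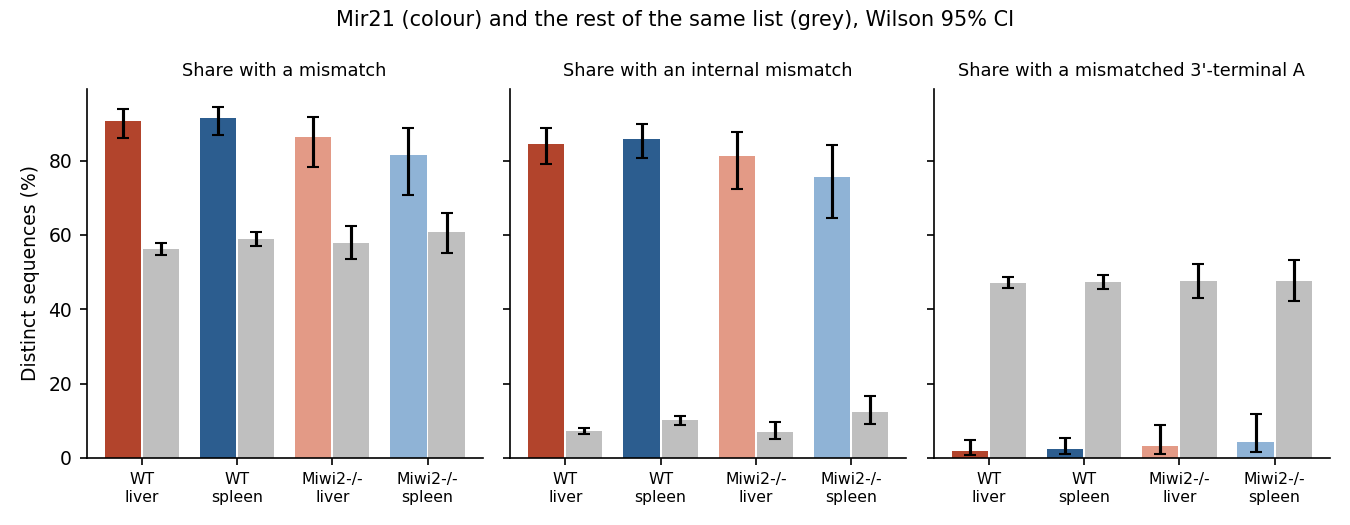
Bars show the percent of distinct sequences with any mismatch (left), an internal mismatch (middle) and a mismatched 3'-terminal A (right) for Mir21 in colour and all other sequences of the same list in grey, with Wilson 95% confidence intervals, in the 4 libraries. Internal mismatches were carried by 75.7 to 85.9% of Mir21 sequences and 6.99 to 12.4% of the others, and a mismatched terminal A by 1.87 to 4.29% and 47.1 to 47.7%.

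The substitutions covered almost the whole of miR-21a-5p. Among sequences that started at position 1, each of the 22 positions can be changed to 3 other bases, which gives 66 substitutions. WT liver held 63 of them (95.5%), WT spleen 61 (92.4%), Miwi2-/- liver 33 (50%) and Miwi2-/- spleen 26 (39.4%). Every one of the 66 was seen in at least 1 library, 20 in all 4, 17 in 3, 23 in 2 and 6 in 1. The 6 seen in a single library were U5A, U6A, U6G, U8C, G11C and U19C. Among sequences with both annotated ends, 1 to 22, the numbers were 54, 56, 18 and 11 of 66.

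The same substitution often occurred with several 3' ends. A2C, C9A, A12C and U14G were the most frequent, each found 16 times when every library and 3' end was counted. C9A, for example, occurred with 5 different 3' ends in WT liver, 5 in WT spleen and, in Miwi2-/-, 3 in liver and 3 in spleen. C4A followed with 15, C13A with 14 and A10C with 13. The first 3 in order of position are shown on the 22 nt form, with the substituted base in capitals, to show that they lie in the seed, just after it and in the middle of the miRNA.
A2C: uCgcuuaucagacugauguuga
C9A: uagcuuauAagacugauguuga
A12C: uagcuuaucagCcugauguuga

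Within the miRNA, fewer distinct sequences had their mismatch in the seed taken as a whole than in the 7 positions after it. Of the mismatched sequences that started at position 1, 41 of 188 in WT liver (21.8%) had the mismatch at positions 2 to 8 and 67 (35.6%) at positions 9 to 15. The numbers were 46 and 63 of 188 in WT spleen (24.5 and 33.5%), 20 and 22 of 79 in Miwi2-/- liver (25.3 and 27.8%), and 8 and 22 of 54 in Miwi2-/- spleen (14.8 and 40.7%). The 95% intervals did not overlap in WT liver (16.5 to 28.2% and 29.1 to 42.7%) or in Miwi2-/- spleen (7.70 to 26.6% and 28.7 to 54%), and overlapped in WT spleen and Miwi2-/- liver. The 2 shares come from the same sequences, and a substitution enters once per 3' end, so the intervals are no test. With each substitution counted once, positions 2 to 15 in WT liver had 3 each but for position 5, with 1. In WT spleen position 6 had 1, positions 8 and 11 had 2 and the others 3. In Miwi2-/- liver positions 2 to 8 had 0 to 2 and 9 to 15 had 1 to 3, and in Miwi2-/- spleen 0 to 1 and 1 to 3. Position 9 carried the most substituted sequences in both WT libraries, 13 in liver and 12 in spleen, where position 14 had as many. In Miwi2-/- liver these were positions 1 and 14, with 6 each, and in Miwi2-/- spleen position 13, with 5. The median over the 22 positions was 6.5, 7, 3 and 1 sequences. Counts within the seed were uneven, with 10, 10, 5 and 3 at position 2 and 4, 1, 0 and 0 at position 6. Position 2 thus lay above the median in every library, and the seed was not low throughout. Each position was substituted at least once in both WT libraries, while 5 positions in Miwi2-/- liver and 6 in Miwi2-/- spleen were not.

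**Figure D4:**
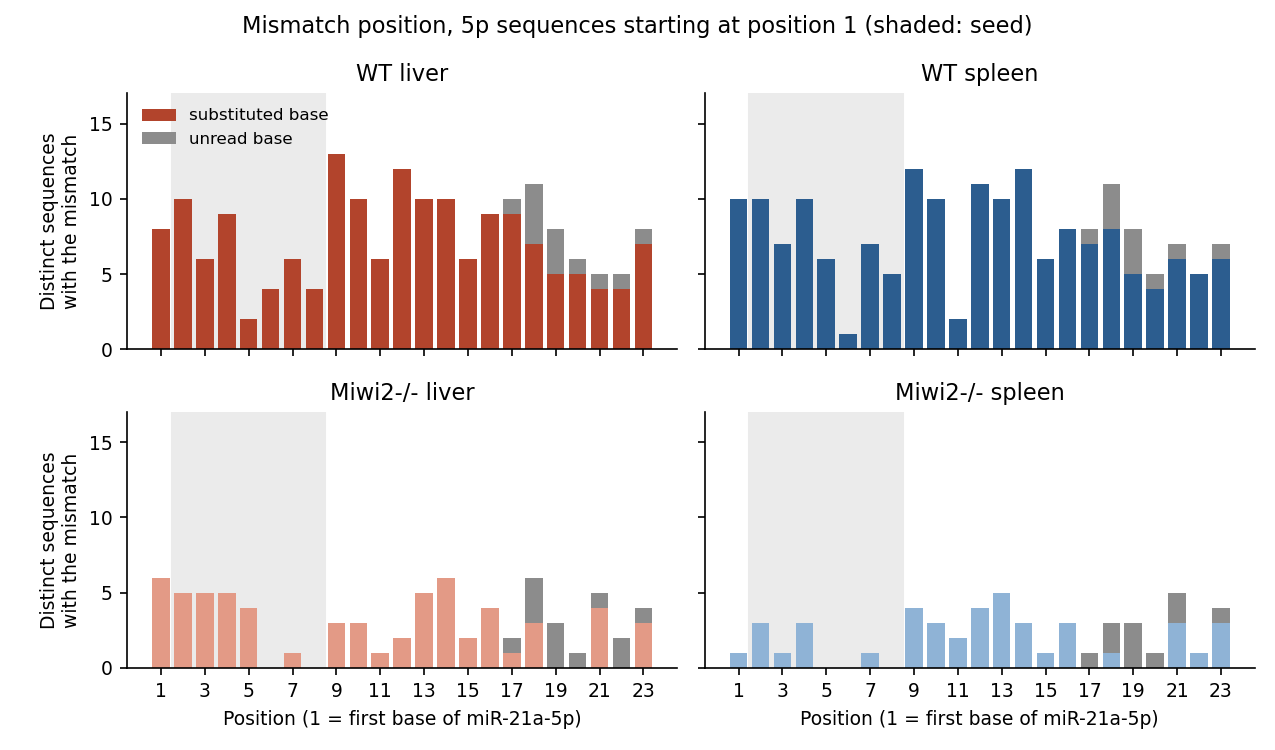
Stacked bars show, for 5p sequences starting at position 1 in each library, how many distinct sequences had their mismatch at each position of miR-21a-5p and the base after it, in colour for a substituted base and in grey for an unread one, with the seed shaded. In the WT libraries every position was substituted, most often position 9 (13 and 12 sequences, in spleen tied with position 14), and unread bases were found at positions 17 to 23.

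All kinds of change were found in both WT libraries, in unequal numbers. Among internal substitutions of the 5p sequences, transitions made up 27.8% of 169 in WT liver, 26.2% of 168 in WT spleen, 18.2% of 66 in Miwi2-/- liver and 26.2% of 42 in Miwi2-/- spleen. A-to-C changes were found in 22, 22, 9 and 8 sequences, C-to-A in 18, 17, 11 and 10, and U-to-G in 20, 22, 9 and 2. A-to-G changes were found in 17, 15, 5 and 4, and C-to-U changes in 10, 11, 1 and 2. C is the rarest base of miR-21a-5p, and C-to-A made up 10.7, 10.1, 16.7 and 23.8% of the internal substitutions. The counts include changes past the annotated arm and were not adjusted for how often each base occurs.

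Sequences with an unread base were nearly all at Mir21. They numbered 12 in WT liver, 14 in WT spleen and, in Miwi2-/-, 12 in liver and 11 in spleen, against 2, 1, 0 and 0 in the rest of the lists. In the sequences that started at position 1 the unread base lay between positions 17 and 23 in every library. These sequences are counted above as mismatched but not as substituted, and their part in the share with a mismatch is given with the alternatives in the closing paragraphs.

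The same pairs of ends recurred with many different mismatches, which was measured as the number of distinct sequences per pair of 5' and 3' ends. Mir21 had 27 pairs of ends in WT liver and 7.93 sequences per pair. It had 22 pairs and 9.68 in WT spleen, 19 pairs and 5.05 in Miwi2-/- liver, and 16 pairs and 4.38 in Miwi2-/- spleen. Other 3' UTR clusters with at least 10 sequences numbered 95, 58, 3 and 4, and their median was 1 sequence per pair in every library. Their maximum was 1.11 in WT liver (Akr1c6), 1.19 in WT spleen (H1f2, the histone gene also named Hist1h1c) and, in Miwi2-/-, 1 in liver and 1.07 in spleen (H1f2). The largest of them, Errfi1 in WT liver, had 157 sequences with 157 pairs of ends. Their shares of internal mismatches reached at most 30% in WT liver (H1f2), 44.4% in WT spleen (Tut7) and, in Miwi2-/-, 6.25% in liver (Errfi1) and 29.4% in spleen (H4c8), each below that of Mir21 in the same library. Mir21 thus had several sequences per pair of ends, most of them mismatched, and the other clusters about 1 sequence per pair.

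**Figure D5:**
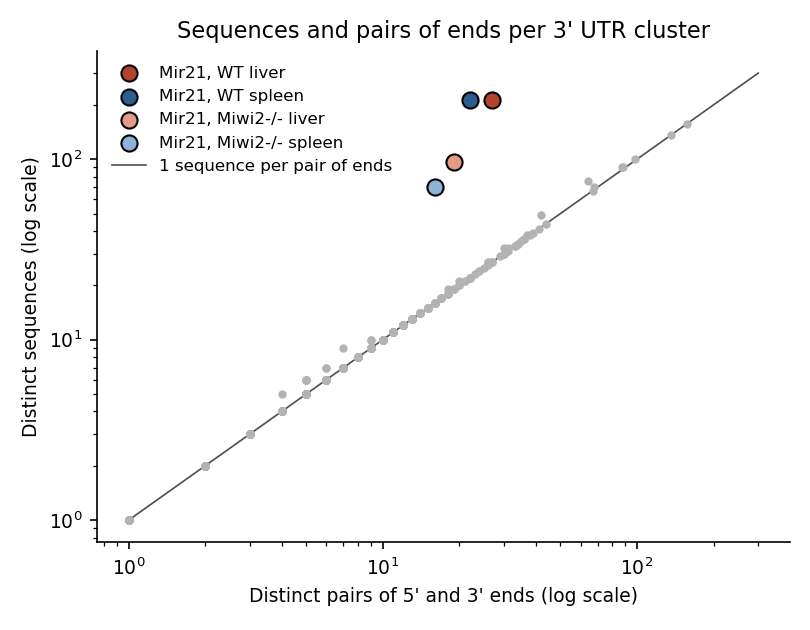
Each point is a 3' UTR cluster in a library, with its number of distinct pairs of 5' and 3' ends on the x axis and of distinct sequences on the y axis (both log scales), grey for other clusters and coloured for Mir21, and the line marks 1 sequence per pair. The other clusters of at least 10 sequences lie at 1 to 1.19 sequences per pair, and Mir21 lies above the line at 4.38 to 9.68.

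Mir21 sequences were shared between libraries in larger proportions than the rest. This contrast is in part fixed by the choice of regions. Clusters were defined separately in liver and spleen, and a sequence outside a tissue's clusters could not be in its lists. Mir21 itself was chosen as a locus with many listed sequences. Its possible forms are also limited. Of the 66 substitutions of the 1 to 22 form, WT liver held 54 and WT spleen 56, so many of these had to be shared. Over the 4 lists there were 283 different Mir21 sequences, of which 100 occurred in 1 library, 102 in 2, 35 in 3 and 46 in 4 (16.3% in all 4). Of the 7107 different sequences outside Mir21, 6992 occurred in 1 library (98.4%) and 6 in all 4 (0.0844%). WT liver and WT spleen had 161 Mir21 sequences in common (75.2% of the former and 75.6% of the latter). WT and Miwi2-/- liver shared 77 (36% and 80.2%), and WT and Miwi2-/- spleen 60 (28.2% and 85.7%). For the rest of the lists these pairs shared 51 (1.26% and 2.11%), 37 (0.912% and 7.97%) and 46 (1.90% and 14.9%). Of the 46 found in all 4 libraries, 11 matched the genome and 35 carried a mismatch, which was an unread base in 8. All were from the 5p arm, 44 starting at position 1 and 2 at position 0. In Miwi2-/- liver 87 of 96 Mir21 sequences, and in Miwi2-/- spleen 62 of 70, were present in at least 1 other library.

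Outside Mir21, the Vmp1 3' UTR held only 6 sequences, of 22 to 29 nt. A mismatch was carried by 4 of them, at the last base in 3 and at the base before it in 1. WT liver had 3 sequences, at UTR positions 200, 495 and 1045 counted from its first base. WT spleen had 2, at positions 48 and 725, and Miwi2-/- spleen had 1, at position 206. The WT liver sequence at 86398591 to 86398613 and the Miwi2-/- spleen sequence at 86398584 to 86398607 overlapped. They are shown because they are the only overlapping pair.
Vmp1 3' UTR, WT liver: cacgucguauucuuuagggugga
Vmp1 3' UTR, Miwi2-/- spleen: guauucuuuaggguggaugugauc

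The deposited cluster of Vmp1 ended with the 3' UTR in liver but reached 6608 nt past it in spleen, to 86390759. This downstream stretch held 31 WT spleen and 5 Miwi2-/- spleen sequences. The liver lists could hold none there, because they were limited to a cluster that ended before it. They resembled the other clusters and not Mir21, with 31 pairs of ends for the 31 WT spleen sequences, of which 20 carried a mismatch and 13 a mismatched terminal A.

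Known miRNAs had been removed by the authors. The lists hold only sequences in 3' UTR clusters, so a miRNA gene outside the clusters could hold none. How many annotated miRNA genes lie inside a cluster was not counted. Of 1577 miRNA genes annotated in GENCODE M1, 2 held sequences. Besides Mir21 this was AC125540.1 (chromosome 15, 80770469 to 80770550), with 6 sequences in WT liver, 3 in WT spleen and 1 in each Miwi2-/- library. The removal allowed mismatches, and why Mir21 sequences, including the annotated mature form, remained in the lists was not tested. The ends and mismatches described here are those of the forms that remained. They need not be those of all miR-21 in the tissues.

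Known targets of miR-21 were looked up in the lists to see whether their 3' UTRs held small RNAs. Of 15 such genes, 4 had sequences in WT liver, 2 in WT spleen and, in Miwi2-/-, 2 in liver and 0 in spleen. Of all 21861 genes with an annotated 3' UTR, expressed in these tissues or not, 2.33, 1.65, 1.01 and 0.608% had sequences in the same order, and no test was made of the list. In its annotated 3' UTR, Ppara, a nuclear receptor of hepatic fatty acid oxidation, had 12 sequences in WT liver and 3 in Miwi2-/- liver and none in spleen. The deposited Ppara cluster, which is wider, held 67 in WT liver and 5 in Miwi2-/- liver. The transcription factor gene Nfib had 14 and 3 and likewise none in spleen. Marcks, a substrate of protein kinase C, had 3 in WT liver and 13 in WT spleen, and the small GTPase gene Rhob had 3 and 5. Both had none in their annotated 3' UTRs in the Miwi2-/- libraries, while the wider Rhob cluster held 4 in WT liver, 12 in WT spleen and 1 in Miwi2-/- spleen. Pdcd4, Spry1 and Reck had none in any list.

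Genes of miRNA processing and tailing were looked up in the same way. Of 15, 1 had sequences in WT liver, 3 in WT spleen and, in Miwi2-/-, 1 in liver and 1 in spleen, beside the same shares of all genes (2.33, 1.65, 1.01 and 0.608%). The Argonaute gene Eif2c1 had 3 sequences in WT liver and 1 in Miwi2-/- liver, and Eif2c3 had 7 in WT spleen and 1 in Miwi2-/- spleen. Zcchc6 (Tut7), a terminal uridylyltransferase, had 4 in its annotated 3' UTR in WT spleen, of 18 in the wider deposited cluster. Dgcr8, the partner of Drosha, had 1 sequence in WT spleen. Drosha, Dicer1 and Xpo5 had none. These counts concern small RNAs in the 3' UTRs of these genes and not the levels of their mRNAs.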

How the data were processed

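Small RNAs of liver and spleen from WT and Miwi2-/- mice were sequenced in 4 libraries. The authors trimmed adapters, collapsed identical reads, removed known non-coding RNAs including miRNAs with Bowtie, kept unique mm9 alignments with at most 1 mismatch, and deposited the distinct sequences in 3' UTR clusters, which are neither counts of reads nor normalized. The submitters' processing notes name CASAVA 1.8, cutadapt and bedtools. Library totals of uniquely aligned distinct sequences came from the supplement.

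The sequences were placed again on NCBIM37 (the same build as mm9) without gaps, by a program checked on simulated sequences (Python 3.11.15, numpy 2.4.6, numba 0.67.0). All 7845 had a single best placement. The lists give the genome's plus strand, so Mir21 sequences were reverse-complemented, antisense RNA could not be told apart, and an unread base counted as a mismatch. Strands elsewhere were read from WT clusters overlapping at least 50% of a sequence. Mir21 was compared with the rest of each list by Fisher's exact tests (scipy 1.17.1). The members and gene lists were chosen with earlier results of these data known. The sequences printed are the mature arms, the first 12 found in all 4 libraries, the longest per arm and examples of the most frequent mismatches. The miR-21c, 23 nt and overlapping Vmp1 sequences were added after their values were seen, as were Akr1c6, Tut7 and H4c8. A gene of the target list is not reported here.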

Additional observations from a re-analysis of the deposited data

How the results depend on the processing

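Of 80 alternative values, 50 kept their side of the test's threshold or, without a test, stayed within their counting interval, their quartiles or 1.5 times the count, and none reversed. Among these, the difference in mismatched 3'-terminal A grew by over 1.5 times in every library, to -75.1, -73.1, -73.4 and -68.7 points, when only sequences whose last genome base is not A were counted. The other 30 are given in the order WT liver, WT spleen, Miwi2-/- liver and Miwi2-/- spleen. Counting exact matches only left 20, 18, 13 and 13 Mir21 sequences, with 5p shares of 75, 94.4, 92.3 and 92.3% and 60, 64.7, 75 and 75% of the 5p ones starting at position 1. Counting each pair of ends once left 27, 22, 19 and 16, with 5p shares of 81.5% in WT liver and 90.9% in WT spleen and 59.1, 60, 61.1 and 66.7% starting at position 1. As a share of all uniquely aligned distinct sequences, Mir21 had 0.331, 0.165, 0.722 and 0.278%. With the last 2 bases left out, internal mismatches fell to 76.2, 75.6, 69.8 and 64.3%. Leaving out sequences with an unread base was chosen after seeing the data and left every count within 1.5 times and every share within its interval. Groups of 1 library allow no replicate to be left out. No paired analysis was possible because each group has 1 library and the tests compare sequences within a library.

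The lists limit what these values can show. Read counts are not in them, so a rare and a common form weigh the same, and a library read more deeply can hold more distinct forms. Whether a substitution was present in the RNA or arose in library preparation or sequencing was not tested. Sequences with 2 or more mismatches, with several placements or of other small RNA classes were not analysed here.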
